A study of Mus musculus with 3 samples.

Results

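Rab genes encode small GTPases of the Ras superfamily that give each membrane compartment of a cell its identity. A Rab cycles between a GDP-bound form held in the cytosol by the protein GDI and a GTP-bound form on the membrane, where it recruits effectors that move, tether and fuse vesicles. In macrophages, which take up and digest particles, the Rabs of the early and late endosome also act on the phagosome as it matures into a phagolysosome. The genes described here are the protein-coding genes of the GENCODE M21 annotation whose symbol starts with Rab and a digit. They numbered 69 of 22028 protein-coding genes and of 55536 annotated genes in all. By name and known function 59 of them are Rab GTPases, and the other 10 are partners named after a Rab, such as exchange factors, GTPase-activating subunits and effectors, so the set is not one of GTPases alone.

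The libraries came from bone marrow-derived macrophages of C57BL/6J mice, a culture model in which marrow cells become macrophages. The only group was stimulated with lipid A, a bacterial membrane component, at 100 ng/ml for 50 min, and RNA of the cytosolic fraction was sequenced after removal of ribosomal RNA. There were 3 libraries, here numbered 1, 2 and 3 as their replicate labels are. No genetic change is named in the labels, sex and age are not given, and all 3 libraries carry the same donor label, so the spread between them may be technical. With no unstimulated sample analysed here, levels are described as they stood after lipid A, and changes caused by it were not measured.

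Gene expected counts summed to 33044910, 36769402 and 36522216 in libraries 1, 2 and 3. All 9 macrophage markers, among them Csf1r and Adgre1, reached 1 TPM (a level corrected for transcript length and scaled to a fixed sum per library) in each library. Of 37 markers of other cell types 1 did, the platelet chemokine gene Pf4 at 223 ± 17.8 TPM (SD, n = 3), while the other 3 megakaryocyte and platelet markers stayed below 1 TPM and 14 of the 37 were listed at 0. The summed level of the 37 markers was 247, 216 and 214 TPM in libraries 1, 2 and 3, and their part in the Rab levels was not tested. The median detected coding gene was higher by 0.48 in library 1 and by 0.40 in library 3 than in library 2 on the log2 TPM scale. Of the 37 Rab GTPase genes that reached 1 TPM in each library, 36 were lowest in library 2. The share of all coding genes lowest there was not counted. In log2 CPM (counts scaled to library size), the median deviation of library 2 from a gene's mean was -0.0529 for the 46 Rab GTPases tested. For all coding genes tested it was -0.00134. The SD of a TPM below contains the log2 TPM shift between libraries, which ratios within a library do not. In bulk RNA, fewer cells with a transcript and less of it per cell cannot be told apart.

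Rab proteins attach to membranes through geranylgeranyl groups that Rab geranylgeranyl transferase adds to cysteines at the end of the protein. The coding ends of 5 paralog groups are shown because they hold these cysteines, whose arrangement is the same in some groups and differs in others. Each line gives the last 60 coding bases, stop codon included, of the gene's principal coding transcript (GENCODE M21, mm10), 5′ to 3′ on the coding strand. Capitals mark the codons for cysteine among the last 5 residues.
Rab5a: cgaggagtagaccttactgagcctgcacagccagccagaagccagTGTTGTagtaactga
Rab5b: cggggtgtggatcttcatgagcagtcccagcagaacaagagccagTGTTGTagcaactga
Rab5c: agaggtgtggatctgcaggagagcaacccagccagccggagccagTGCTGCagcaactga
Rab7: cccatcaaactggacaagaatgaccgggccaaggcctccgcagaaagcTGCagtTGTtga
Rab7b: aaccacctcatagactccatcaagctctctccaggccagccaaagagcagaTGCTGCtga
Rab8a: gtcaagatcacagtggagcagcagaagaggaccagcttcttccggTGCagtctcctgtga
Rab8b: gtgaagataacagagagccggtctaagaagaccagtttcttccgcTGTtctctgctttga
Rab11a: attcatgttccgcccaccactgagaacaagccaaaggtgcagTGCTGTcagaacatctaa
Rab11b: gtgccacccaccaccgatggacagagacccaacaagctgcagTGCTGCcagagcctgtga
Rab32: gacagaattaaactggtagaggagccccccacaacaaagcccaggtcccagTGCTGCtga
Rab38: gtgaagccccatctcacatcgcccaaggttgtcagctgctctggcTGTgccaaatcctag

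On mm10 these stretches lie at chr17:53506370-53506429 (plus strand) for Rab5a, chr10:128679530-128679589 (minus) for Rab5b and chr11:100716047-100716106 (minus) for Rab5c. Those of Rab7 and Rab7b lie at chr6:88000435-88000494 (minus) and chr1:131711638-131711697 (plus). For Rab8a and Rab8b the positions are chr8:72180078-72180137 (plus) and chr9:66847719-66847778 (minus). For Rab11a and Rab11b they are chr9:64716849-64716908 (minus) and chr17:33747668-33747727 (minus). The ends of Rab32 and Rab38 lie at chr10:10546302-10546361 (minus) and chr7:88490701-88490760 (plus). All are protein-coding exons. The Rab5 and Rab11 groups share an adjacent pair of cysteine codons followed by further residues. Rab7 has its cysteines separated by a residue whereas Rab7b ends on an adjacent pair, and Rab32 has an adjacent pair where Rab38 has 1 cysteine codon among the last 5. Both Rab8 genes have 1 there.

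All 59 GTPases had a cysteine among the last 5 residues. Of these, 20 ended in cysteine, another residue and cysteine, 15 in adjacent cysteines, 12 in adjacent cysteines followed by 2 or 3 residues, 3 in adjacent cysteines followed by 1 residue, and 9 had 1 cysteine followed by 3 residues. Of the 15 that ended in adjacent cysteines 13 reached 1 TPM in each library, as did 9 of the 20 with the separated pair, 7 of the 12, 2 of the 3 and 6 of the 9 in the other arrangements, beside 37 of all 59. This is a description of related genes, which share ancestry and are not independent. Proteins of detected GTPases had a median length of 213 residues (194 to 281), and those of the other 22 had one of 218.5 (201 to 725).

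Most of the family was present, and a few members made up most of its RNA. At 1 TPM or more in each library stood 37 of 59 GTPases (62.7%) and 9 of 10 partners, together 46 of 69, beside 9128 of all 22028 protein-coding genes (41.4%). The GTPases summed to 1514, 1019 and 1396 TPM in libraries 1, 2 and 3. This was 0.403% ± 0.0103 of the TPM of coding genes outside the mitochondrial genome. The 10 highest GTPases, led by Rab7, Rab5c and Rab8b, held 63.6% ± 0.585 of the summed GTPase TPM. Among the 37 detected GTPases ordered by mean level, the order of neighbours was the same in all 3 libraries for 14 of 36 neighbouring pairs, and in 17 pairs the mean log2 difference exceeded its SD. Rab7 stood above Rab5c in each library (log2 difference 1.00 ± 0.20), while Rab5c and Rab8b differed by 0.02 ± 0.02, and Rab7b, Rab14, Rab11a and Rab20 changed places between libraries.

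**Figure D1:**
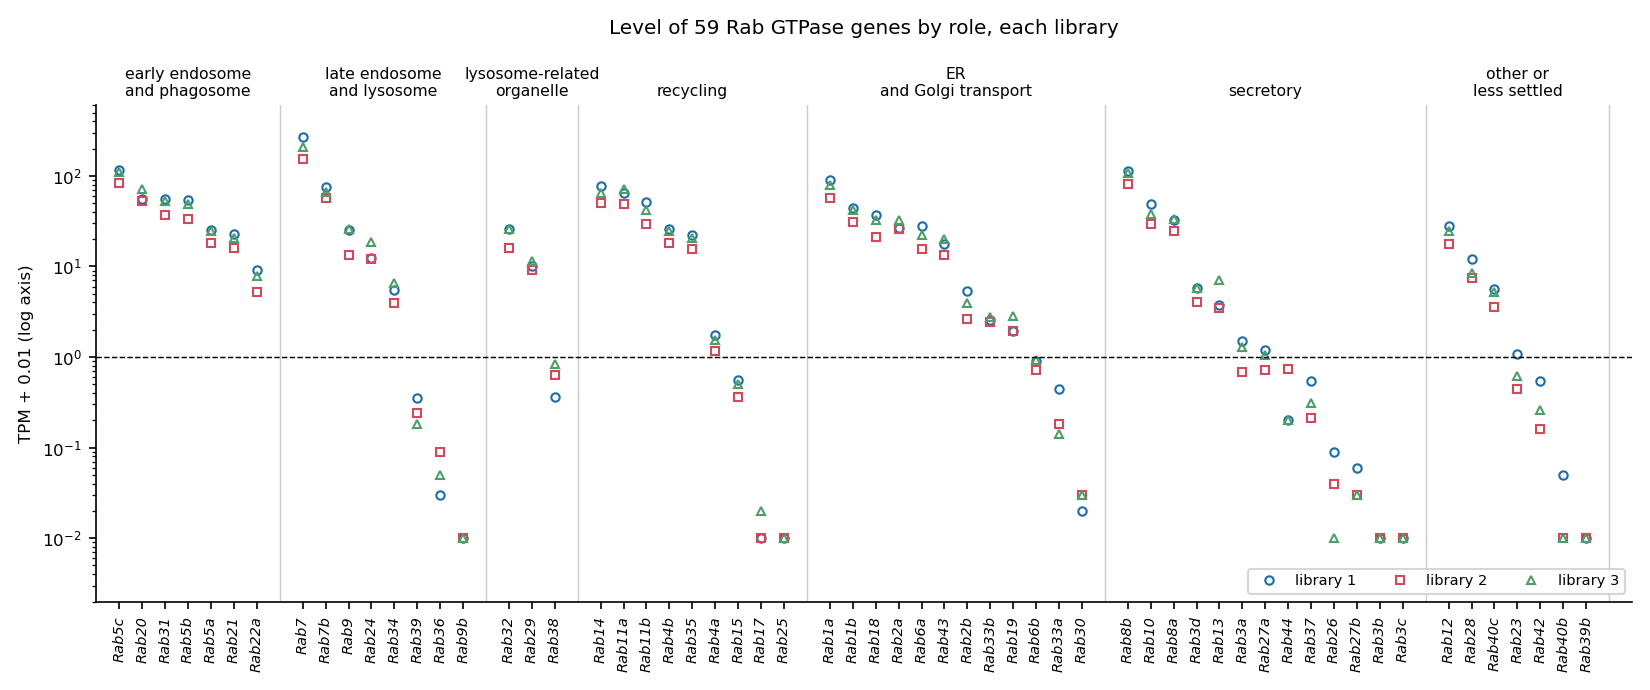
TPM (with 0.01 added, log axis) of 59 Rab GTPase genes in libraries 1, 2 and 3, grouped by role and ordered by mean level. The dashed line marks 1 TPM. All 7 genes placed in the early endosome class lie above it in each library, as do 5 of 13 placed in the secretory class.

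The genes placed in the class of early endosome and early phagosome Rabs were all detected. The class is a hand-written list made with earlier results of these data known. Its detected count therefore depends on which genes were placed in it. All 7 reached 1 TPM in each library, with medians of 54.6, 33.4 and 48.4 TPM in libraries 1, 2 and 3, and they held 23.4% ± 1.02 of GTPase TPM. Rab5 proteins direct the fusion of early endosomes. Rab5c (ENSMUSG00000019173.11, mm10 chromosome 11, 100715009 to 100738215) had 114.55, 83.72 and 109.18 TPM. Rab20, a Rab of phagosomes and endosomes, had 55.37, 52.09 and 71.62 TPM and was highest in library 3. Rab31, which acts between the trans-Golgi network and endosomes, had 55.52, 36.76 and 52.34 TPM. The other members were lower, from Rab5b at 45.5 ± 10.9 TPM to Rab22a at 7.38 ± 1.95 TPM, with Rab21, an endosomal Rab that binds integrins, at 19.7 ± 3.57 TPM.

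Late endosomal and lysosomal Rabs held a like share of the RNA, 24.0% ± 1.28, but concentrated in 2 of 8 genes. Rab7, which drives the fusion of late endosomes and phagosomes with lysosomes, was the highest of all Rab genes with 267.14, 151.73 and 206.12 TPM (ENSMUSG00000079477.9, chromosome 6, 87999106 to 88045270). Rab7b, a relative that acts between endosomes and the trans-Golgi network, had 75.52, 56.72 and 66.92 TPM. Rab7 exceeded Rab7b in every library and the 2 ranges did not overlap. Rab9, which returns mannose 6-phosphate receptors to the Golgi, had 25.26, 13.36 and 26.16 TPM. Rab24 and Rab34 also passed 1 TPM, at 14.4 ± 3.58 and 5.30 ± 1.32 TPM. Rab39 and Rab36 stayed below 1 TPM, and Rab9b had no count. Over all 8 genes the median was 9.83 ± 2.37 TPM.

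Of the 3 genes for Rabs of lysosome-related organelles, Rab32 had 26.03, 16.02 and 25.87 TPM and Rab29 had 10.19, 9.03 and 11.56 TPM. Rab38, the Rab32 paralog known from melanosomes, stayed lower at 0.35, 0.62 and 0.83 TPM, lowest in library 1. Its counts were 20, 45 and 57. The 4 melanocyte markers were all under 1 TPM in each library.

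Recycling Rabs return receptors from endosomes to the cell surface, and 6 of 9 reached 1 TPM in each library. They held 16.1% ± 0.0133 of GTPase TPM, with a median of 19.5 ± 3.54 TPM. Rab14, which acts between the Golgi and endosomes, had 77.39, 50.26 and 64.63 TPM. Rab11a and Rab11b, the Rabs of the recycling endosome, had 63.82, 48.87 and 71.24 TPM and 51.97, 29.75 and 41.45 TPM. Library 1 was highest for Rab14 and Rab11b and library 3 for Rab11a. Rab4b, of the fast recycling route, and Rab35, of recycling at the plasma membrane, stood at 22.9 ± 4.17 and 19.5 ± 3.54 TPM. The epithelial Rabs Rab25 and Rab17 had 0 counts and a single count over all libraries, and the 3 epithelial markers were under 1 TPM.

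The Rabs of endoplasmic reticulum and Golgi transport took 16.9% ± 0.197 of GTPase TPM, with 9 of 12 at 1 TPM or more and a median of 10.5 ± 2.22 TPM. Rab1a, which moves vesicles from the endoplasmic reticulum to the Golgi, had 90.34, 56.43 and 79.43 TPM. Its paralog Rab1b had 43.82, 31.02 and 42.29 TPM, so the ranges of these paralogs did not overlap. Rab18, found on the endoplasmic reticulum and lipid droplets, had 36.82, 21.22 and 32.88 TPM. Rab2a and Rab6a, which serve the Golgi, had mean gene TPM of 28.4 ± 3.53 and 21.9 ± 6.33. The order of Rab18 and Rab2a changed between libraries, and per kilobase of the longest coding transcript Rab2a (37.0 ± 5.44 CPM) and Rab6a (26.2 ± 3.24 CPM) stood above Rab18 (10.8 ± 0.370 CPM). Rab30, a Golgi Rab, had 2, 7 and 8 counts.

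Secretory Rabs ranged in level from some of the highest GTPase genes to genes with no count. Their median was 0.977 ± 0.241 TPM over 13 genes, of which 5 reached 1 TPM in each library, and over those 5 the median was 30.1 ± 4.88 TPM. Rab8b, which acts in transport to the plasma membrane, had 113.93, 81.24 and 108.30 TPM and was the third highest of all GTPases. Rab10, which serves exocytosis and the delivery of Toll-like receptor 4 to the surface, had 49.13, 29.59 and 37.66 TPM. Rab8a, a paralog of both, had 32.15, 24.57 and 33.68 TPM. Rab3d and Rab13 completed the detected genes at 5.18 ± 1.01 and 4.76 ± 1.98 TPM. The remaining 8 include the regulated exocytosis Rabs Rab3a, Rab27a and Rab27b, and 2 of them, Rab3b and Rab3c, had no count. The 4 neuronal markers were under 1 TPM in each library.

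These class medians depend on what the TPM are scaled to. Coding genes held 26.6% to 38.4% of TPM. With TPM rescaled to coding genes outside the mitochondrial genome, the early endosomal median was 139 TPM and the secretory one 2.99 TPM. In the second quantification they were 15.9 and 0.346 TPM. The log2 difference between the early endosomal and the secretory median was 5.40 ± 0.02 (SD, n = 3) with 0.1 TPM added. It had the same sign in each library. In each library these medians were the values of Rab5b and Rab27a, so that SD is the spread of a single gene pair. When only detected members entered, the difference between medians was 0.57 ± 0.17. Detected were 7 of 7 early endosomal genes and 5 of 13 secretory genes, counts that depend on the hand-written classes. Of the genes with other or less settled roles, 3 of 7 were detected, led by Rab12 at 23.2 ± 5.07 TPM, Rab28 at 9.24 ± 2.40 TPM and Rab40c at 4.78 ± 1.09 TPM. Rab12 acts in the degradation of receptors and Rab40c in ubiquitin ligase complexes.

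**Figure D2:**
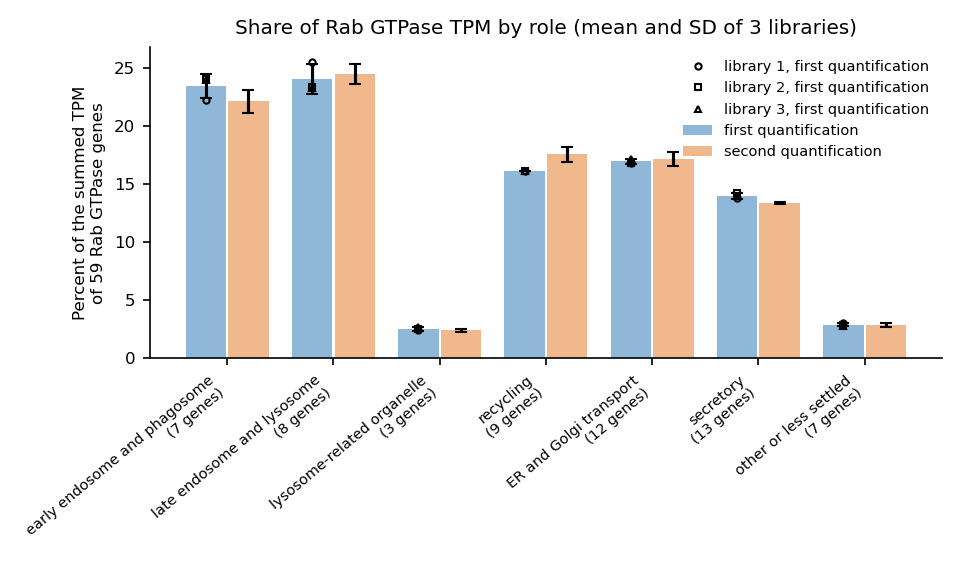
Share (percent) of the summed TPM of 59 Rab GTPase genes in each role, as the mean and SD of 3 libraries, for the first deposited quantification (blue bars, with each library as a symbol) and the second (orange bars). Early and late endosomal genes each hold more than any other role, at 23.4% and 24.0% in the first quantification.

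Under 1 TPM in at least 1 library were 22 GTPases, of which 19 stayed below it in every library. Rab3a, a Rab of synaptic vesicles, and Rab27a, a Rab of secretory lysosomes, were the highest of the 22 with 1.5, 0.67 and 1.29 TPM and 1.18, 0.71 and 1.04 TPM. Both fell under 1 TPM in library 2 only, the library in which 36 of the 37 detected GTPases were lowest too. At the other end, Rab9b, Rab39b, Rab25, Rab3b and Rab3c had 0 counts in each library, which allows up to 3 counts, or 0.0908, 0.0816 and 0.0821 CPM (counts scaled to library size) in libraries 1, 2 and 3, a limit for counting error only. Rab17 had 1 count in all, Rab26 had 1, 2 and 0 counts, and Rab40b had 3 counts in library 1 alone. None of these genes could be told from an absent one at this depth in the first quantification. Rab9b and Rab3c had estimated counts of 7.51 to 26.9 in every library of the second. Counts were found in every library for 14 of the 22.

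Paralogs arose by duplication, and the question asked of each pair was which copy the macrophages carried more of. In all 24 pairs the same gene was higher in 3 of 3 libraries. In 12 pairs both genes were detected at 1 TPM or more, in 9 only the higher one was, and in 3 neither was. The exact sign-flip permutation test (two-sided) gave p = 0.25 for every pair, the smallest it can give with 3 libraries, and 0.25 after Benjamini-Hochberg adjustment over the 24 pairs. The proteins of a pair were 49.7% to 92.5% identical over the shorter protein, as translated from the annotation. The longest stretch of identical coding sequence was 11 to 38 bases long, depending on the pair. The posterior SD that the deposited tables give for a count stayed within 1% of the count for all but 2 of the 64 members with counts.

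Among the Rab5 genes the order was Rab5c, Rab5b, Rab5a in each library. Rab5c exceeded Rab5a 4.52-fold ± 0.0901 (SD, n = 3) and Rab5b 2.29-fold ± 0.204, and Rab5b exceeded Rab5a 1.99-fold ± 0.182. The 3 proteins share the same compartment and 81.9% to 87.9% of their residues. Expected counts ran the same way for Rab5c over Rab5a, at 8239, 8964 and 9291 against 2282, 2500 and 2658.

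Rab7 exceeded Rab7b 3.54-, 2.68- and 3.08-fold in libraries 1, 2 and 3. These 2 genes are the least alike of the pairs compared, with 49.7% identity. In the other endosomal pair, Rab31 exceeded Rab22a 6.61-fold ± 0.449. For the lysosome-related pair, Rab32 exceeded Rab38 74.4-, 25.8- and 31.2-fold, with 20 counts of Rab38 in library 1 where the ratio was highest. Rab9 was at least 1060-fold above Rab9b in each library, and Rab39 at least 8.99-fold above Rab39b, both against a floor of 3 counts per library in the first quantification. The bound for Rab9b did not hold in the second quantification, where Rab9 was 316-, 133- and 725-fold higher.

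In the recycling class, Rab4b exceeded Rab4a 15.6-fold ± 0.626, with a close range of 15.0 to 16.2 over the libraries. Rab11a stood 1.23-, 1.64- and 1.72-fold above Rab11b in TPM. Their expected counts were in the reverse order, 2170, 2477 and 2768 for Rab11a against 3951, 3587 and 4075 for Rab11b, which has a longest coding transcript of 6109 bases against 2336 for Rab11a. Per kilobase of that transcript Rab11a was again higher, at 29.8 ± 2.32 against 17.9 ± 1.82 CPM. Over coding transcripts only they were alike in library 1, at 46.8 and 46.7 TPM, and the log2 ratio was 0.40 ± 0.36. Rab25, the epithelial member of the Rab11 group, was at least 508-fold below Rab11a in gene TPM, against 3 counts per library. Over coding transcripts only Rab11a had 46.8, 39.3 and 59.4 TPM, so the bound is lower by that measure.

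For the Golgi pairs, Rab1a exceeded Rab1b 1.92-fold ± 0.126, the most alike proteins of the set at 92.5% identity. Rab2a exceeded Rab2b 4.93-, 9.89- and 8.29-fold. Rab6a exceeded its neuronal paralog Rab6b 25.9-fold ± 5.15 although 90.9% of their residues are the same. Rab33b exceeded Rab33a 5.98-, 14.3- and 21.3-fold, where Rab33a had 17, 10 and 6 counts.

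Among secretory paralogs the ratios of Rab8a depended on which of its transcripts were counted. Rab8b exceeded Rab8a 3.36-fold ± 0.169 in gene TPM, a log2 ratio of Rab8a over Rab8b of -1.74 ± 0.07. Over protein-coding transcripts only the log2 ratio was -2.96 ± 0.06. As counts per kilobase of the longest coding transcript it was -2.83 ± 0.05. Against Rab10 the log2 ratio of Rab8a was -0.35 ± 0.23 in gene TPM, -1.57 ± 0.14 over coding transcripts and -0.08 ± 0.09 in the second quantification, so the 2 genes were near each other by gene TPM and apart by coding TPM. Rab8a over Rab13 was 2.70 ± 0.41 by gene TPM and 1.48 ± 0.49 by coding transcripts.

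Rab3d, the Rab3 form of non-neuronal secretory cells, exceeded Rab3a 4.77-fold ± 1.10 and in the first quantification was at least 103-fold above Rab3b and at least 239-fold above Rab3c, against 3 counts per library. These bounds did not hold in the second quantification, where Rab3d was 90.3-, 59.1- and 339-fold above Rab3c and 29.4-fold above Rab3b in library 1. Rab27a had 141, 124 and 144 counts against 5, 6 and 3 for Rab27b. In the second quantification Rab27b had 14.0, 20.6 and 7 counts. Rab37, a Rab of mast cell granules, had 45, 25 and 30 counts against 1, 2 and 0 for Rab26. Rab40c had 501, 485 and 559 counts against 3, 0 and 0 for Rab40b. No fold is given for these 3 pairs.

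**Figure D3:**
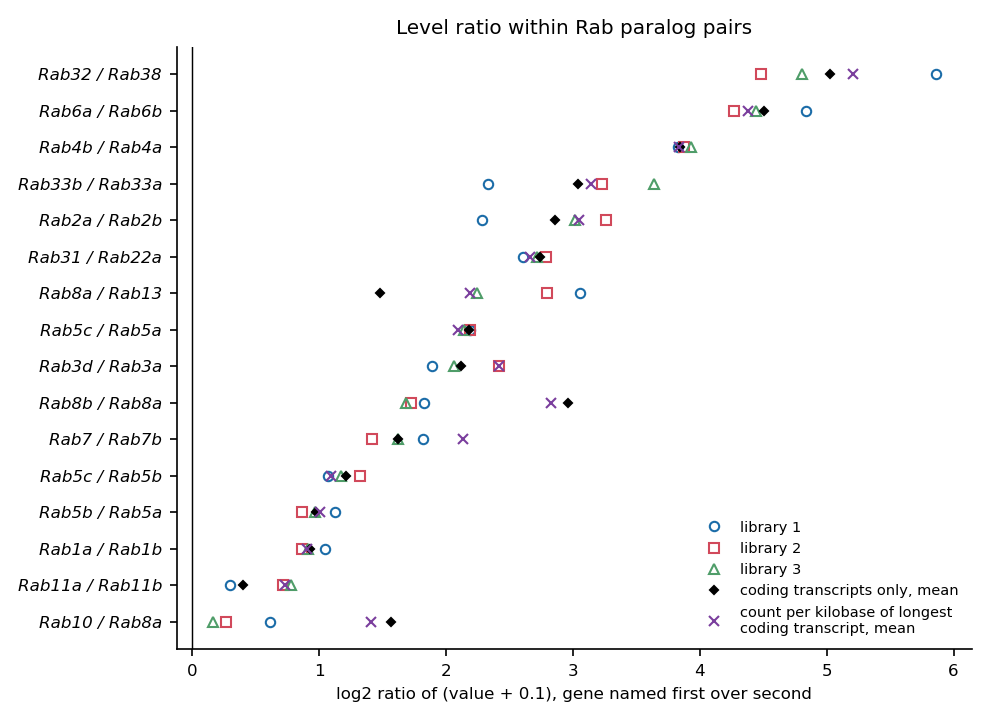
log2 ratio of (value + 0.1) for the 16 paralog pairs with measured ratios, the higher gene named first, in libraries 1, 2 and 3 (open symbols) from gene TPM. Black diamonds are means over coding transcripts and crosses are means from counts per kilobase; all lie above 0, and the 3 pairs with Rab8a are those where the diamond lies farthest from the open symbols.

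Most Rab GTPase RNA was assigned to protein-coding transcripts. Over the 37 detected GTPases the coding share of a gene's TPM was 95.2% ± 0.753 on average, beside 90.1% ± 0.467 over all 9128 detected coding genes. Retained-intron transcripts held 2.00% ± 0.280 and 3.83% ± 0.331. In the second quantification the coding shares were lower for both, 93.2% and 88.1%. The share was at least 90% for 33 of the 37 GTPases and below 50% for 1, which was Rab8a.

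Rab8a has a retained-intron transcript of 542 bases, Rab8a-202, beside its coding transcript Rab8a-201 of 4550 bases. The short one held 57.1% ± 3.50 of the gene's TPM, from 53.2% in library 1 upwards, and 65.4% ± 1.45 in the second quantification. By expected count it held 9.18% ± 1.32, with 229, 298 and 334 counts against 2769, 2695 and 3034 for the coding transcript. TPM divides by transcript length, so most Rab8a reads lay on the coding transcript while most TPM lay on the other. Coding TPM of Rab8a was 13.0 ± 2.77.

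Rab11a showed the same gap between the measures. Its coding transcript of 2336 bases, Rab11a-208, took 69.5% ± 6.02 of expected counts and 26.1% ± 2.65 of TPM. The coding transcript Rab11a-201, of 595 bases, took 15.0% ± 5.86 of counts and 31.4% ± 12.8 of TPM. Transcripts Rab11a-203 and Rab11a-206 held 16.3% ± 12.0 and 11.8% ± 10.5 of TPM, a spread about as large as the means. Rab11a-206 had 96.8, 0.01 and 189 counts, so its share was not stable between libraries.

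Further genes divided their RNA between coding transcripts. Rab7b-201 and Rab7b-202 held 48.0% ± 4.68 and 47.7% ± 4.18 of TPM, but 25.5% and 74.1% of counts. Rab6a-201 and Rab6a-203 held 49.0% ± 10.1 and 40.7% ± 14.5 of TPM, and Rab6a-203 was the larger in library 1 only (57.4%, 33.5% and 31.2%). In Rab18 the shares of Rab18-203, Rab18-201 and Rab18-205 were 46.8% ± 3.57, 33.5% ± 3.94 and 17.3% ± 4.07 of TPM. By expected count the order was reversed. Rab18-205, of 6515 bases, held 65.1% ± 6.67 of counts, Rab18-201 19.95% ± 4.37 and Rab18-203 14.7% ± 2.67. Transcripts not annotated as coding were seen in Rab40c, where the processed transcript Rab40c-205 held 58.3%, 37.1% and 23.1% of TPM. In Rab35 the nonsense-mediated decay transcript Rab35-202 held 22.3%, 3.09% and 12.2% of TPM, and 31.1% ± 8.74 in the second quantification. By expected count this transcript of 966 bases held 4.11% ± 3.33. Neither the Rab40c-205 share nor the Rab35-202 share was stable between libraries.

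**Figure D4:**
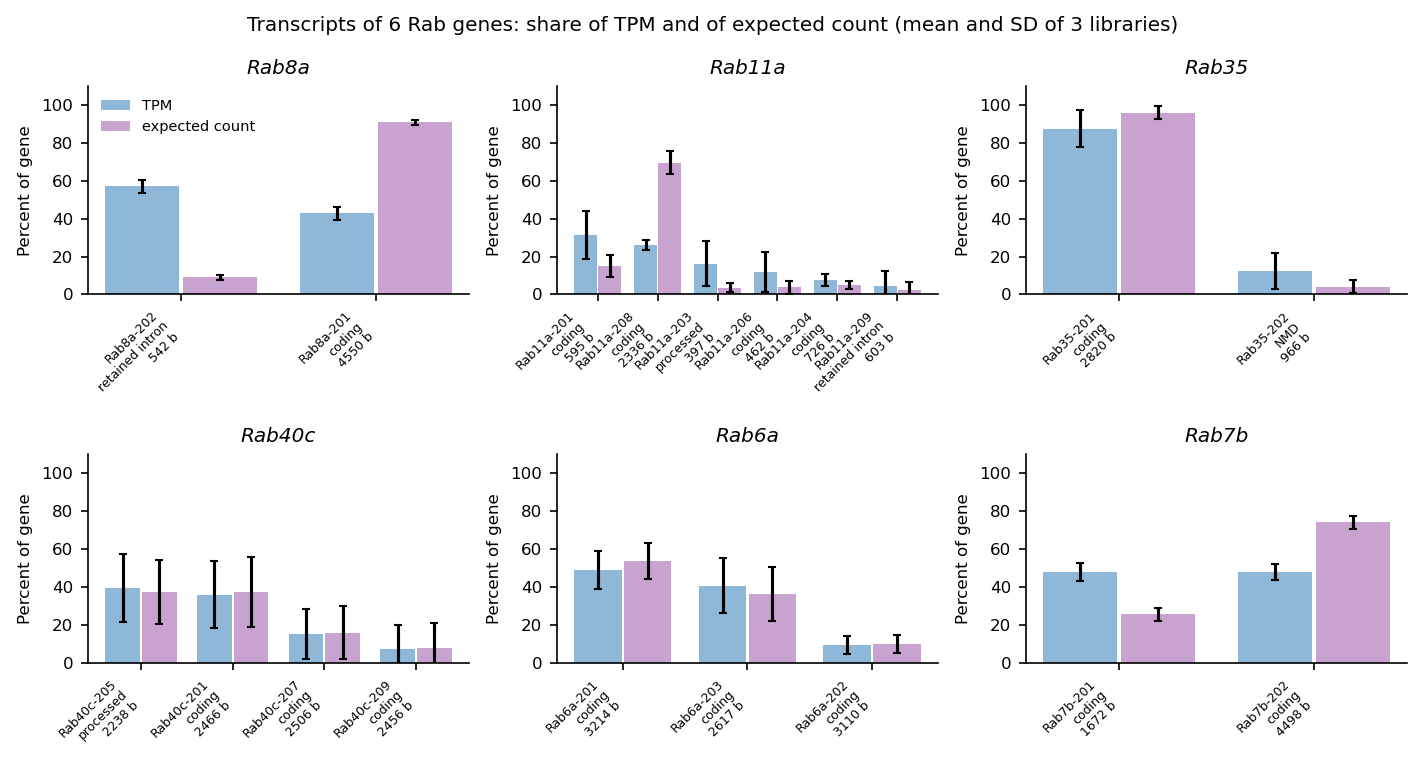
Percent of a gene's TPM (blue) and of its expected counts (purple) in each transcript of Rab8a, Rab11a, Rab35, Rab40c, Rab6a and Rab7b, as the mean and SD of 3 libraries, with transcript class and length in bases under each bar. The 542-base transcript of Rab8a holds 57.1% of TPM and 9.18% of counts.

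Some levels are uncertain because exons overlap another gene. Rab43, a Golgi Rab, shares 75.4% of its exonic bases with the coding gene Gm45140 on the same strand. The posterior SD of Rab43 reached 2.56% of its count. Gm45140 was assigned 539, 473 and 97.6 counts in libraries 1, 2 and 3, against 3250, 3582 and 4245 for Rab43. The split between these genes thus differed between libraries. Rab4b shares 65.0% with the coding gene Gm21983 on the same strand, which was assigned 0 counts in each library. Rab24 shares 62.4% with Prelid1 on the opposite strand (posterior SD up to 1.43%), and Prelid1 stood at 70.0 ± 14.2 TPM. Rab2b shares 59.3% with Gm43766, also on the opposite strand, which had 5.48, 1.87 and 3.24 counts. Rab20 shares 25.6% with the noncoding RNA E230013L22Rik and Rab6a 19.0% with Mrpl48, both on the opposite strand. Whether counting used the strand is not given in the sources used here, and without it reads of such neighbours cannot be told apart.

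No Rab gene was called as varying between the libraries. By the chi-square goodness of fit in edgeR, with Benjamini-Hochberg adjustment over 12231 genes, 203 genes varied beyond the trend (1.66% of those tested). Of the 11136 protein-coding genes tested 115 did, and of the 56 Rab genes tested 0 did. With shares this low, 0 calls in 56 genes do not set the Rab genes apart. At an unadjusted p under 0.05 there were 2 Rab genes, and with DESeq2 dispersions 0 were called and 1 had such a p. Of all genes tested, 6.42% had such a p with edgeR and 5.28% with DESeq2 dispersions. The median SD of log2 CPM over the libraries was 0.123 for the Rab genes and 0.137 for all coding genes tested. Within bins of equal level, 27 of 56 Rab genes lay below the median SD of their bin and 6 above its 90th percentile.

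The Rab genes with the lowest p were Rab13, Rab9 and Rab20. Rab13, which acts at cell junctions, had log2 CPM of 2.10, 2.47 and 3.11 and 142, 198 and 321 counts (edgeR adjusted p = 0.533). It was highest in library 3. Rab9 had 5.30, 4.85 and 5.44, lowest in library 2 (edgeR adjusted p = 0.628). For Rab20 the values were 6.37, 6.75 and 6.83, lowest in library 1 (edgeR adjusted p = 1.00). None of these 3 passed the threshold.

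**Figure D5:**
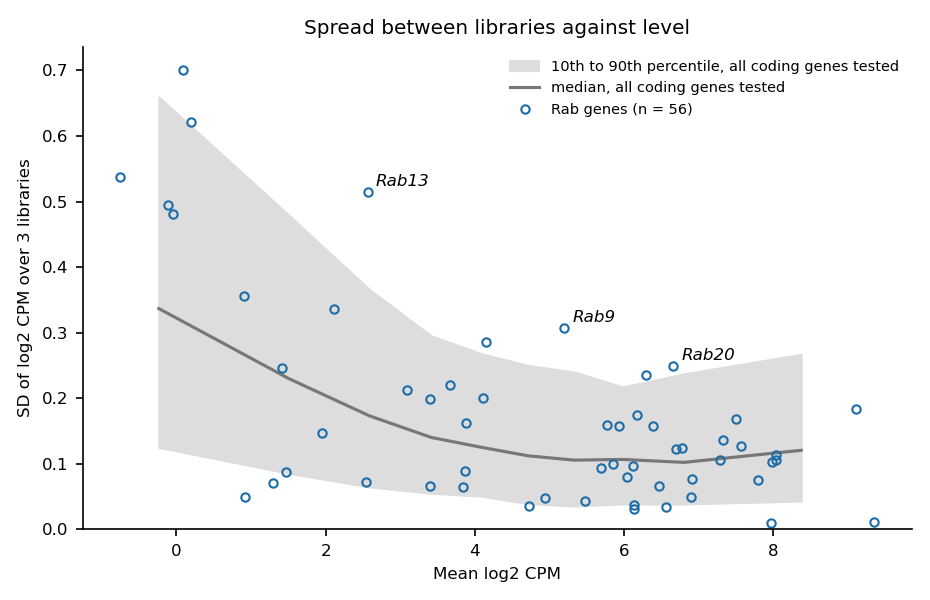
SD of log2 CPM over 3 libraries against mean log2 CPM for the 56 Rab genes tested (circles). The line and band give the median and the 10th to 90th percentile of all coding genes tested in 10 bins of level; 6 Rab genes lie above the band, Rab13 and Rab9 among them.

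Of the partners named after a Rab, 9 of 10 reached 1 TPM in each library. Rab5if had 45.78, 39.66 and 51.91 TPM. Rab3il1, an exchange factor for Rab8, had 43.93, 27.33 and 39.25 TPM, of which 23.4% ± 3.63 lay in a nonsense-mediated decay transcript. Rab11fip5, an effector of Rab11, had 26.99, 19.02 and 28.59 TPM. Rab3gap1 and Rab3gap2, the subunits of a complex that inactivates Rab3 and activates Rab18, stood at 9.02 ± 1.18 and 23.8 ± 4.85 TPM. Rab11fip4 was the 1 partner not detected, with 13, 30 and 22 counts.

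The wider machinery that loads, activates and reads Rabs was represented by 123 other genes, of which 99 reached 1 TPM in each library. Of all 22028 protein-coding genes 9128 (41.4%) did. All 8 genes of prenylation and cytosolic recycling did. The highest was Gdi2, the GDI that extracts Rabs from membranes, with 201.08, 148.11 and 207.42 TPM. Next in that group was Rabac1, a Rab acceptor, at 39.2 ± 4.88 TPM. Exchange factors, which load GTP, reached 1 TPM in 24 of 31 cases, and GTPase-activating proteins, which end the active state, in 32 of 35. Their highest members were Dennd4c and Gapvd1, at 37.7 ± 9.14 and 29.8 ± 4.61 TPM, and Tbc1d13 and Tbc1d2b, at 32.1 ± 5.87 and 27.0 ± 4.65 TPM.

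Effectors were detected in 33 of 46 cases, beside 41.4% of all protein-coding genes. They were led by Rilpl2, a partner of phosphorylated Rab8 and Rab10, with 47.37, 44.45 and 72.95 TPM. Next was Plekhm1, which joins Rab7 to the lysosomal fusion machinery, at 28.7 ± 6.10 TPM. Unc13d, which encodes a Rab27 effector, had 6.74, 5.08 and 7.53 TPM. The 13 effectors not detected include all 5 synaptotagmin-like genes Sytl1 to Sytl5, which also encode Rab27 effectors, and the neuronal Rab3 effector genes Rph3a, Rims1 and Rims2. Of these, Sytl2, Sytl5, Rph3a and Rims1 had no count. These names were chosen after their values were seen. Of 3 genes for enzymes that act on Rab phosphorylation, 2 reached 1 TPM in each library. Ppm1h, a phosphatase, stood at 23.2 ± 4.48 TPM and the kinase Lrrk1 at 6.25 ± 0.790 TPM. The kinase gene Lrrk2 had 1.4, 0.93 and 1.19 TPM in libraries 1, 2 and 3 and was not detected. The edgeR test called 0 of 108 machinery genes as varying between libraries, beside 115 of 11136 coding genes and 1.66% of all genes tested. Of the 108, 4 had an unadjusted p under 0.05 by edgeR and 2 with DESeq2 dispersions. The shares of all genes at that p were 6.42% and 5.28%.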

How the data were processed

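For each of the 3 libraries the authors deposited gene and transcript tables with expected counts (estimated reads), a posterior SD of the count and TPM, and a second transcript table with estimated counts and TPM, here the second quantification. They were made against mm10 with GENCODE M21, per the deposited notes. The sources used here do not give the tools, their versions or the strand setting. Rows that name no annotated gene held 0.365%, 0.162% and 0.0200% of counts and were left out.

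Levels are deposited TPM, with detection meaning at least 1 TPM in every library, and folds in text are ratios of TPM per library. Log2 ratios carry 0.1 TPM and were tested by an exact two-sided sign-flip permutation test over libraries. A paralog at 0 in every library was bounded at 3 counts per library, and one with 3 counts or fewer in some library is given by its counts, with no fold. Roles and paralog pairs were hand-written lists. Members and lists were chosen with earlier results of these data known. Named genes are all members of the pairs, the 3 highest of each role, the 3 Rab genes with the lowest p, the highest and lowest undetected ones, and the 2 highest of each machinery class. Rab21, Rab24, Rab34, Rab36, Rab35, Rab30, Rab43, Rab3gap1, Rab3gap2, Rab11fip4, Unc13d and Lrrk2 fall outside this rule. They were chosen after their values were seen.

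For variation between libraries, expected counts were rounded to whole numbers and tested with edgeR 4.0.16 (R 4.3.3), after filterByExpr and TMM scaling, with the trended dispersion and a threshold of 0.05. There is 1 group, so no contrast could be tested. log2 CPM (counts scaled to library size) carry a prior count of 0.5. The step was also run on simulated data drawn with a common dispersion instead of the trend. That run does not measure the power of the test for the Rab genes. DESeq2 1.42.0 was an alternative. Protein identity came from translated annotated transcripts, with biopython 1.88. Python 3.11.15, pandas 2.3.3, numpy 2.4.6, scipy 1.17.1 and matplotlib 3.10.9 did the rest. Alternatives were other thresholds, scalings, pseudocounts and filters, the second quantification and each library left out. Chosen after seeing the data were the rescaled second quantification, coding transcripts only and counts per kilobase.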

Additional observations from a re-analysis of the deposited data

Results flagged for a closer look

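Rab-named genes outside the protein-coding set also carried reads, above 3 counts in each library. Rab10os, an antisense RNA that overlaps Rab10 exons by 143 bases, had 626, 587 and 807 expected counts in libraries 1, 2 and 3, a mean of 673. Rab26os, antisense as well, had 11, 4 and 5 counts (mean 6.67). The processed pseudogenes Rab7-ps1 and Rab11b-ps2 had means of 25.6 and 21.4 counts, with posterior SDs of up to 12.1% and 49.8% of the count, so their share of reads from the parent genes is uncertain.

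Among the 5 GTPases with 0 counts in every library, Rab9b and Rab3c had estimated counts in the second quantification. Rab9b had 16.1, 26.9 and 7.51 (mean 16.8) and Rab3c 14.3, 26.8 and 7.58 (mean 16.2), while Rab39b and Rab25 were at 0 there as well and Rab3b had 2, 0 and 0.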

How the results depend on the processing

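The number of Rab genes at 1 TPM or more, 46, was 49 and 41 at thresholds of 0.5 and 2 TPM. It was 51 with TPM rescaled to coding genes outside the mitochondrial genome. In the second quantification it was 39 (51 when rescaled), and with a library left out it was 46 to 48. The number of Rab genes called as varying was 0 under each setting tried, while over all genes leaving out a library gave 89 to 132 calls. All 24 paralog pairs kept their direction under each of the 8 alternatives, that is in 192 of 192 log2 ratios. Each pair had the same sign in all 3 libraries, so other pseudocounts and left-out libraries could not reverse it. Only the second quantification, coding transcripts only and counts per kilobase could have done so. The log2 difference between early endosomal and secretory medians, 5.40, was 5.50 with rescaled TPM, 5.14 in the second quantification and 0.57 over detected members, where fewer genes enter. The coding share of 95.2% was 93.2% in the second quantification, and the cause was not tested. Class medians moved by more than their SD in 20 of 42 alternative values, most with rescaled TPM or the second quantification. No paired analysis was possible because there is 1 group. With 3 libraries no exact p can fall below 0.25, and genes under 3 counts cannot be told from absent ones.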
